A study of Homo sapiens with 9 samples.

Results

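The chromatin at 10 genes of the epithelial to mesenchymal transition (EMT) was examined in MDA-MB-231 cells, a triple-negative breast cancer line with a mesenchymal shape. The 10 genes were chosen by their roles, out of 20033 protein-coding genes. They were the transcription factors ZEB1, ZEB2, SNAI1, SNAI2 and TWIST1, the mesenchymal markers VIM, CDH2 and FN1, and the epithelial markers CDH1 and EPCAM. A promoter was the stretch within 1 kb of the transcription start site (TSS) of the gene's canonical transcript in GENCODE release 44, and a locus was that transcript with 100 kb on each side. Peaks of 9 ATAC-seq libraries were merged into 118719 regions wherever they overlapped, and 171 of these regions lay at the 10 loci.

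ATAC-seq uses the Tn5 transposase, which inserts adapters where DNA is not covered by nucleosomes, so a peak marks accessible chromatin. Cells of the shCtrl, shEZH2 and shE2F1 groups carried a lentiviral control shRNA or an shRNA against EZH2 or E2F1, with 2 libraries each. A further library came from cells with an shRNA against SUZ12, another from cells given DMSO, and another from cells given GSK126, an inhibitor of the EZH2 methyltransferase whose dose the labels do not give. For the shRNA libraries, transduction took 24 h and selection with puromycin at 2 μg/ml took 72 h. All groups shared this parental line, which is a single established line. EZH2 and SUZ12 belong to Polycomb repressive complex 2, and E2F1 is a cell cycle transcription factor. An shRNA acts on RNA, so peaks do not check the knockdowns.

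In EMT, epithelial cells lose their junctions and gain motility. ZEB, SNAIL and TWIST proteins bind E-boxes, short DNA motifs, and repress epithelial genes such as CDH1. Vimentin, N-cadherin and fibronectin are produced as the cells become mesenchymal.

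Each library came with a list of 58626 to 85812 peaks, the shortest in the second shEZH2 library and the longest in the second shE2F1 library. Fold enrichment is the ratio of tags at a peak's summit to the local background, and its percentile is the peak's rank by this ratio among all peaks of the same list, where 100 is the strongest. At weak peaks a few tags set this ratio, so tied percentiles recur. The most frequent background, which moves with depth, was 1.41 to 2.18 tags, and it was lowest in the second shEZH2 library. The weakest peaks had −log10 q of 2.00 to 2.07 and 8 to 9 tags at the summit, so a site called closed is a site without a peak at that threshold. The promoters of the basal markers CD44, EGFR, CAV1 and MSN had a peak in all 9 libraries. Of 6 luminal markers, TFF1 had one in all 9 libraries at percentiles of 81.8 to 95.6, GATA3 had none, and ESR1, PGR, FOXA1 and SPDEF had one in 6 to 8 libraries with no percentile above 35.6.

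Stretches of DNA from an open promoter, a closed promoter and the distal sites that recur in the results are given first, so that their motifs can be set beside the values. Capitals mark the E-box CAGGTG, the AP-1 motif TGAGTCA and the shorter TEAD motif GGAATG, each searched on both strands, and none of them contains another. The 3 promoter sequences are the 250 bases before a RefSeq start, on the strand of the gene, in GRCh38.p14. RefSeq entries for SNAI1, SNAI2, TWIST1, CDH1 and EPCAM were not found in the table used here. The others are the 201 bases around the summit of the strongest peak of the region, on the plus strand of GRCh38, in no annotated exon. ZEB1 has several RefSeq starts, and the stretch shown precedes the most upstream of them, before the canonical TSS, and overlaps an exon of the antisense RNA ZEB1-AS1.
ZEB1 promoter (chr10:31318167-31318416, plus strand): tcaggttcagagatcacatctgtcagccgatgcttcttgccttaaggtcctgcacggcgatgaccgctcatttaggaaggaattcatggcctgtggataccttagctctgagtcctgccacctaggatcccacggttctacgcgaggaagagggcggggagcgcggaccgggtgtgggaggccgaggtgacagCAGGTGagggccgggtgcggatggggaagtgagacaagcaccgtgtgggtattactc
VIM promoter (chr10:17227991-17228240, plus strand): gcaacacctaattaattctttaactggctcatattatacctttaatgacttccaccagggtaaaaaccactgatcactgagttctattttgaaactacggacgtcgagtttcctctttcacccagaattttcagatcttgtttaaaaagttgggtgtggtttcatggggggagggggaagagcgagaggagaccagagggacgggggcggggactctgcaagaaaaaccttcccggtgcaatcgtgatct
CDH2 promoter (chr18:28177131-28177380, minus strand): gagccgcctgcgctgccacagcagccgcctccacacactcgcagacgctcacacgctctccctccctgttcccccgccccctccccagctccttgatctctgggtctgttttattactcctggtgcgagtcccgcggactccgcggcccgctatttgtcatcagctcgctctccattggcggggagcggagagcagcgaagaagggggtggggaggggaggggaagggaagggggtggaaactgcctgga
ZEB1 upstream site (chr10:31242985-31243185): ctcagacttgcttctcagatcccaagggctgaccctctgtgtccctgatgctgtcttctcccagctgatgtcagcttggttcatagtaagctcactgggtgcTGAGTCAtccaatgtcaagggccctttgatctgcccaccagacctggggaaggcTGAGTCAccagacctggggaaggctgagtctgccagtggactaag
CDH2 upstream site (chr18:28183846-28184046): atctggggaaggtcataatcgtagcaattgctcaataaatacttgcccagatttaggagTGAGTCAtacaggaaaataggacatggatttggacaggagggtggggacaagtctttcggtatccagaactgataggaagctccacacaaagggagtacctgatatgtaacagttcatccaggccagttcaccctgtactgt
CDH2 intron 2 site (chr18:28115231-28115431): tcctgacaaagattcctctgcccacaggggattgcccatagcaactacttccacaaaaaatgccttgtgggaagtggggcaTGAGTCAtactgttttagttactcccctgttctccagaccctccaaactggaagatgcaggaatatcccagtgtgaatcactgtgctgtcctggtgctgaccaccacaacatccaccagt
CDH1 intron 2 site (chr16:68760872-68761072): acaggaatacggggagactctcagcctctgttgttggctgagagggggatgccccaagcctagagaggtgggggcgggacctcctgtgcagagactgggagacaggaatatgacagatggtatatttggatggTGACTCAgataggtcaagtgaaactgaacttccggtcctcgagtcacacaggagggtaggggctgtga
ZEB2 downstream site (chr2:144358036-144358236): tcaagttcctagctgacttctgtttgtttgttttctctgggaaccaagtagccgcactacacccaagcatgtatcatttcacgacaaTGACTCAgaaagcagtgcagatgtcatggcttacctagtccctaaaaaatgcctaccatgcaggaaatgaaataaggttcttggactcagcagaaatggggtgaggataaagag
SNAI1 upstream site (chr20:49951222-49951422): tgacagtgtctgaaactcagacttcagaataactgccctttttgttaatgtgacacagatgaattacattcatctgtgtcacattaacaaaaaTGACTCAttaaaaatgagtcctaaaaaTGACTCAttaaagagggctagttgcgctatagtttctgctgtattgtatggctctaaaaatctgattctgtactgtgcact
TWIST1 upstream site (chr7:19177365-19177565): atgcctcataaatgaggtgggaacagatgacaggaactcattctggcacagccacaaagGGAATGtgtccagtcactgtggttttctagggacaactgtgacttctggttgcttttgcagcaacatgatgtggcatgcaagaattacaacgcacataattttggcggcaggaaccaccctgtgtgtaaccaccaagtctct
TWIST1 downstream site (chr7:19020126-19020326): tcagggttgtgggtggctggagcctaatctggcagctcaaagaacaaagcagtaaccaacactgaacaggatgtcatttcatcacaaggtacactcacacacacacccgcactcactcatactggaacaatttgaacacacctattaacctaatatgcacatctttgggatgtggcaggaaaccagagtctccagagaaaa
The open ZEB1 stretch held 1 E-box, and the VIM and CDH2 stretches held none of the 3 motifs. The VIM stretch lies before the TSS, and the 201 bases around the summit of the VIM promoter peak, not shown, did hold AP-1 letters. AP-1 letters were found at the sites of ZEB1, ZEB2, SNAI1, CDH1 and both sites of CDH2, whereas the upstream TWIST1 site held a TEAD motif and the downstream TWIST1 site held no match.

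The first question was which EMT promoters were open. Of the 10 promoters, 6 had a peak in all 9 libraries, namely ZEB1, SNAI1, SNAI2, VIM, FN1 and EPCAM. ZEB2 and CDH1 had a peak in some libraries, and TWIST1 and CDH2 in none. Over all 20033 promoters, 60% had a peak in all 9 libraries, 10.9% in some and 29.1% in none, so the split of the EMT genes was near that of all genes. In bulk libraries, fewer cells with an open site and a less open site in each cell cannot be told apart. Per library, 6 to 8 of the 10 EMT promoters had a peak, where 62% to 66.7% of all promoters did. The open EMT promoters were not strong by rank: the median percentile over all promoters with a peak was 71.9 to 79.1 per library, and of the EMT genes only EPCAM had values above 71.9.

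**Figure D1:**
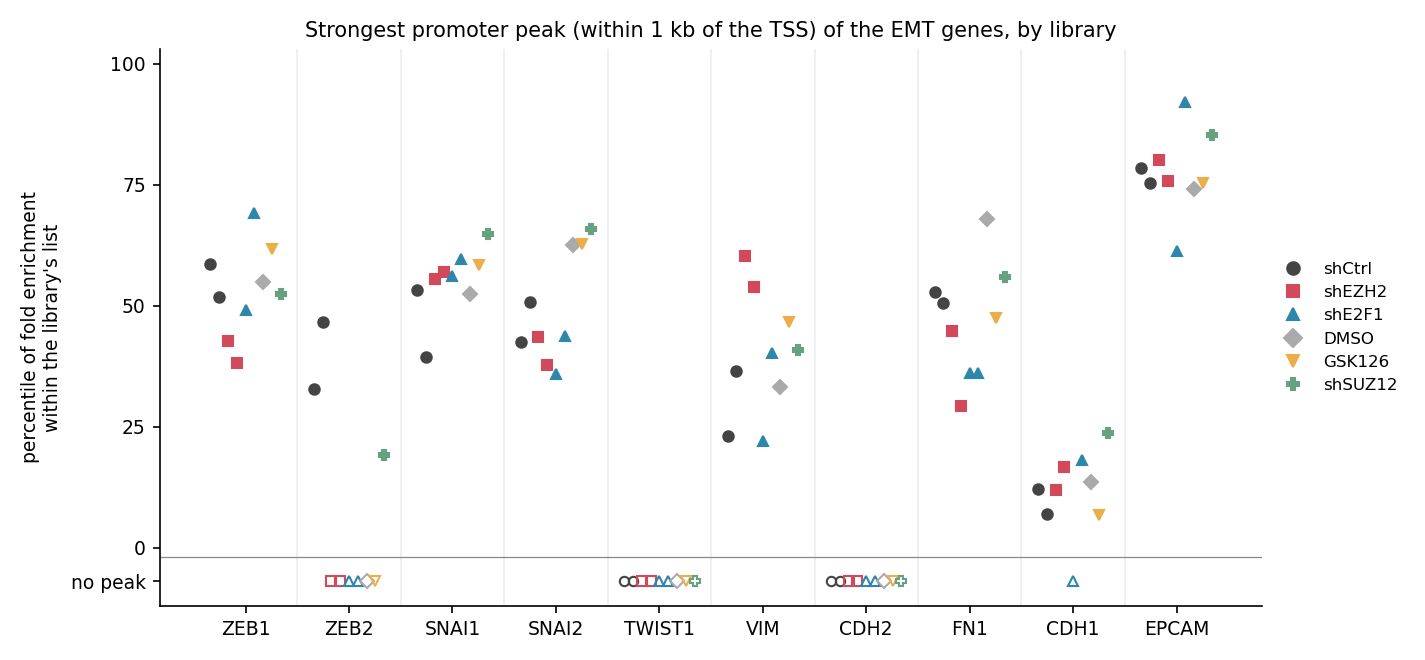
Percentile of fold enrichment (vertical axis, 0 to 100) of the strongest peak within 1 kb of the TSS of each EMT gene, with 1 point per library, coloured by group, and open points under the line for libraries without a peak. TWIST1 and CDH2 have only open points, ZEB2 has filled points in 3 libraries, CDH1 stays at or below 23.7 and EPCAM runs from 61.3 to 92.2.

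ZEB1 encodes a zinc finger repressor of epithelial genes. Its promoter peak (chr10:31318205-31319701 as merged) covered the TSS in all 9 libraries, at percentiles of 58.6 and 51.8 in shCtrl, 42.6 and 38.2 in shEZH2, 49.2 and 69.2 in shE2F1, 54.8 with DMSO, 61.8 with GSK126 and 52.4 with shSUZ12. The shEZH2 libraries were the lowest of the 9 and did not overlap shCtrl, while the shE2F1 libraries lay on both sides of shCtrl. The peak was 1315 to 1462 bp wide and held 41 to 79 tags at its summit.

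ZEB2, the paralogue of ZEB1, had a narrow promoter peak of 293 to 449 bp (chr2:144520029-144520496) in 3 libraries. The percentiles were 32.7 and 46.7 in the shCtrl libraries and 19.2 with shSUZ12, with 23 to 29 tags. Neither shEZH2 nor shE2F1 library had it, nor did DMSO or GSK126. In these 6 libraries the nearest peak began 2309 to 2398 bp downstream of the TSS, in a region over exon 2 (chr2:144516529-144517810) at which other ZEB2 transcripts start. That region had a peak in 8 libraries at percentiles of 7.86 to 42.8, and with the TSS of any transcript or a window of 2500 bp ZEB2 had a peak in all 9.

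SNAI1 encodes Snail, a zinc finger repressor of CDH1. Its promoter (chr20:49982129-49983268) had percentiles of 53.2 and 39.3 in shCtrl, 55.6 and 57 in shEZH2, 56.1 and 59.6 in shE2F1, 52.4 with DMSO, 58.5 with GSK126 and 64.9 with shSUZ12. All 5 knockdown libraries lay above both shCtrl libraries, and the shCtrl libraries differed more from each other than the shEZH2 and shE2F1 libraries did. The summit lay within 162 bp upstream of the TSS in every library.

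SNAI2 encodes Slug, the paralogue of Snail. Its promoter peak (chr8:48921234-48922148) had percentiles of 42.4 and 50.7 in shCtrl, 43.5 and 37.8 in shEZH2, 35.8 and 43.7 in shE2F1, 62.6 with DMSO, 62.8 with GSK126 and 65.9 with shSUZ12. Both knockdown groups overlapped shCtrl, and the 3 unreplicated libraries were the highest. A weaker peak centred 957 bp downstream of the TSS (chr8:48920163-48920781) was present in 5 libraries at percentiles of 4.52 to 21.6, and it was absent from both shEZH2 libraries, GSK126 and shSUZ12.

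TWIST1 encodes a basic helix-loop-helix factor. No library had a peak at its promoter, nor with a window of 2500 bp or with the start of any transcript. In both shE2F1 libraries a peak lay 2909 and 2901 bp downstream of the TSS, just past the 3' end of the 2169 bp transcript (chr7:19114297-19114735). These peaks were weak, at percentiles of 14 and 12.6 with 10 and 12 tags. In the other 7 libraries the nearest peak lay 38233 to 59708 bp away.

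Among the mesenchymal markers, VIM, the intermediate filament vimentin, had a broad promoter peak of 1360 to 1536 bp (chr10:17228085-17229635) that ran from the TSS into the gene. Its percentiles were 23.1 and 36.4 in shCtrl, 60.3 and 53.8 in shEZH2, 22.1 and 40.2 in shE2F1, 33.1 with DMSO, 46.6 with GSK126 and 40.9 with shSUZ12. The shEZH2 libraries were the highest of the 9. The peak held 64 to 192 tags at its summit, more than any other of these promoters in every library, over a high local background of 12.3 to 30.4 tags, and ranked by −log10 p in place of fold enrichment it lay at percentiles of 71.1 to 92.1.

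CDH2, N-cadherin, had no peak at its promoter in any library. With a window of 2500 bp 1 library had a peak, and with the TSS of any transcript 6 did, at a transcript that starts 211295 bp downstream of the canonical TSS. Its promoter window was rich in CpG, with an observed over expected ratio of 0.913, higher than 97.3% of promoters, and that of TWIST1 was 0.813, higher than 86.4%. Promoters without a peak in any library had a median ratio of 0.289, and those with a peak in all 9 had 0.701. Both closed EMT promoters thus lay above the median of either kind, while the partly open ZEB2 promoter had a ratio of 0.438.

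FN1, fibronectin, had a promoter peak (chr2:215435457-215436827) over the TSS in all libraries. The percentiles were 52.9 and 50.6 in shCtrl, 44.8 and 29.3 in shEZH2, 36 and 36 in shE2F1, 67.9 with DMSO, 47.4 with GSK126 and 56 with shSUZ12. All 4 libraries of the shEZH2 and shE2F1 groups lay below both shCtrl libraries. The peak held 68 and 71 tags in shCtrl, 42 and 29 in shEZH2 and 31 and 45 in shE2F1.

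Of the epithelial markers, CDH1, the junction protein E-cadherin, had weak promoter peaks in 8 libraries. This number was 6 with −log10 q of at least 5 or a window of 500 bp and 2 with lists of equal length, and with the TSS of any transcript it was 9. The percentiles were 12.2 and 6.93 in shCtrl, 12 and 16.6 in shEZH2, 18.1 in the second shE2F1 library, 13.5 with DMSO, 6.76 with GSK126 and 23.7 with shSUZ12. The first shE2F1 library had none. The peaks held 11 to 24 tags at −log10 q of 3.96 to 9.45, and only those of the first shEZH2 library and shSUZ12 covered the TSS, the others beginning up to 866 bp downstream. The CDH1 promoter held 7 E-boxes, and 2.1% of all promoters held as many or more. SNAI1 held 6, EPCAM 5, ZEB1 4, ZEB2, SNAI2 and CDH2 1 each, and TWIST1, VIM and FN1 none, beside a median of 2 over all promoters.

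EPCAM, an epithelial adhesion molecule, had the highest promoter percentiles of the 10 genes in every library. They were 78.5 and 75.4 in shCtrl, 80.2 and 75.8 in shEZH2, 61.3 and 92.2 in shE2F1, 74.1 with DMSO, 75.4 with GSK126 and 85.3 with shSUZ12 (chr2:47369022-47370220). The shE2F1 libraries were the lowest and the highest of the 9. The summit lay 451 to 741 bp downstream of the TSS, past the start of the gene.

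Promoters were then compared between knockdown and control. With 2 libraries against 2, a promoter was called higher or lower where the groups did not overlap, which is no test, and the smallest exact two-sided permutation p of this design is 0.333. In shEZH2 against shCtrl, 7 EMT promoters had a peak in all 4 libraries. SNAI1 and VIM were higher, 2 of 7, where 10.6% of all promoters were. ZEB1 and FN1 were lower, 2 of 7, where 29.7% of all promoters were. The means ± SD (n = 2) were 57 ± 4.59 against 29.8 ± 9.44 for VIM, a difference of 27.3 percentile points, and 56.3 ± 0.928 against 46.3 ± 9.86 for SNAI1, a difference of 10. They were 40.4 ± 3.07 against 55.2 ± 4.86 for ZEB1, a difference of -14.8, and 37 ± 11 against 51.7 ± 1.58 for FN1, a difference of -14.7. The median difference over all promoters was -2.58.

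The size of these differences moved with how peaks were ranked. By −log10 p the VIM difference was 8.31 and the ZEB1 difference -9.32. With as many peaks per list as the shortest list holds, 58626, the ZEB1 difference was -4.89, the FN1 difference -3.34 and the SNAI1 difference 23.9. Without the second shCtrl library the SNAI1 difference was 3.08, and without the first 17. Without the second shEZH2 library the FN1 difference was -6.94, and without the first -22.5. SNAI2, CDH1 and EPCAM overlapped between shEZH2 and shCtrl, with differences of -5.92, 4.77 and 1.04.

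In shE2F1 against shCtrl, 6 EMT promoters had a peak in all 4 libraries. SNAI1 was higher, 1 of 6, where 19.2% of all promoters were, and FN1 was lower, 1 of 6, where 17% of all promoters were. The SNAI1 mean was 57.9 ± 2.45 (SD, n = 2), 11.6 points above shCtrl, and without the second shCtrl library this difference was 4.64 and without the first 18.6. The FN1 mean was 36 ± 0.0541, a difference of -15.8 that stayed between -16.9 and -14.6 as each library was left out. ZEB1, SNAI2, VIM and EPCAM overlapped, with differences of 4, -6.84, 1.35 and -0.2. This comparison and that of shEZH2 share the shCtrl libraries, so the like direction of SNAI1 and of FN1 in both is not independent. The unreplicated GSK126 and DMSO libraries differed most at FN1, at 47.4 and 67.9, and at VIM, at 46.6 and 33.1.

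Beyond promoters, the 10 loci held between 11 regions at TWIST1 and 28 at SNAI1, over 202 to 426 kb. Of the 171 regions, 19 lay at the promoter of an EMT gene or of a neighbouring gene, and 14 of these 19, 73.7% (95% Wilson interval 51.2 to 88.2), had a peak in all 9 libraries, where 74.8% of all promoter regions did. Of the other 152 regions, 45, or 29.6% (22.9 to 37.3), had a peak in all 9, where 28.4% of all such regions did. Peaks in a single library made up 29 of the 171 regions, 17% (12.1 to 23.3), where the share over all regions was 24.3%. Wilson intervals cover counting error only. SNAI1 and EPCAM each had 13 regions present in all 9 libraries, CDH1 9, VIM 6, FN1 5, ZEB2 and CDH2 4, ZEB1 3, and SNAI2 and TWIST1 1 each.

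**Figure D2:**
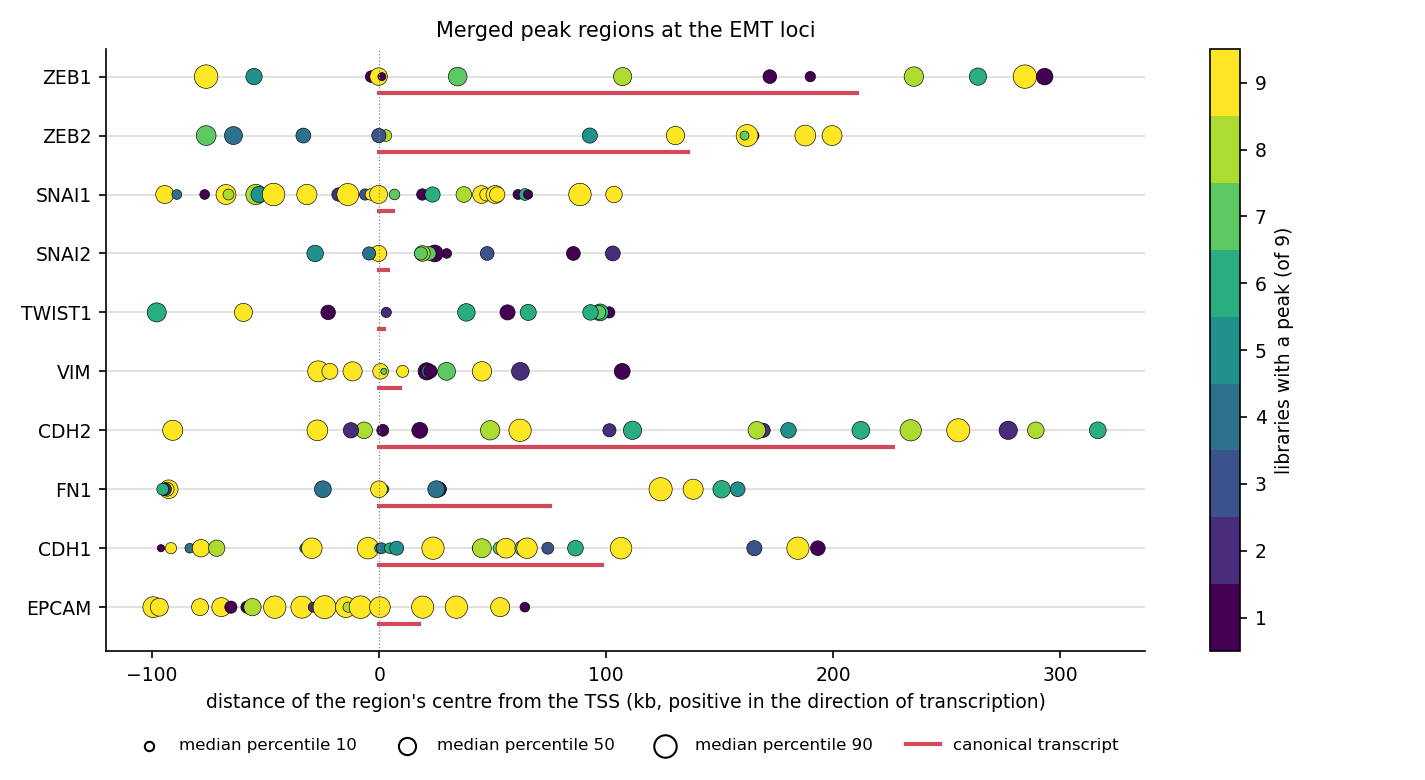
The 171 merged regions at the EMT loci, by distance of their centre from the TSS (horizontal axis, kb), with 1 row per gene, colour for the number of libraries with a peak, point area rising with the median percentile, and a red bar for the canonical transcript. SNAI1 and EPCAM have 13 regions each in all 9 libraries, and at SNAI2 and TWIST1 there is 1.

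By median percentile of fold enrichment, the ZEB1 locus held the highest EMT site. A region 76.2 kb upstream of the TSS (chr10:31242542-31243419), in no protein-coding gene, had percentiles of 99.9 and 99.6 in shCtrl, 99.6 and 98.2 in shEZH2, 95.6 and 99.3 in shE2F1, 99.4 with DMSO, 87.8 with GSK126 and 98.9 with shSUZ12. It stood at 95.6 or above in every list but that of GSK126. Ranked by −log10 p in place of fold enrichment, it lay at percentiles of 71.1 to 93.4. Its fold enrichment was 12.5 to 20.4 with 31 to 95 tags, and its summit sequence above carries 2 AP-1 motifs. In the gene body, the most recurrent site was in intron 1 (chr10:31426084-31426787), with a peak in 8 libraries, all but the first shE2F1 library, at percentiles of 29.8 to 88.2.

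At ZEB2 the leading site outside the gene lay 162 kb downstream of the TSS (chr2:144357744-144358402), beyond the 3' end. Its percentiles were 93.7 and 85.4 in shCtrl, 62.8 and 57.4 in shEZH2, 75.6 and 94 in shE2F1, 90 with DMSO, 81.1 with GSK126 and 92.4 with shSUZ12, so that the shEZH2 libraries were the lowest of the 9. The leading site in the body covered the last exon, exon 10, with coding sequence and UTR (chr2:144389203-144390057), at percentiles of 42.6 to 68.7.

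The SNAI1 locus was the most crowded, and its leading site was the promoter of the neighbour RNF114, 46.5 kb upstream (chr20:49935889-49937047), at percentiles of 81.4 to 94.1. SNAI1 had no region in its 5907 bp body other than the promoter. Inside RNF114, 31.9 kb upstream of SNAI1 (chr20:49950570-49951670), a site picked after its values were seen, with 2 AP-1 motifs, had percentiles of 89.2 and 83.4 in shCtrl, 74.9 and 71.4 in shEZH2, 69.6 and 64.8 in shE2F1, 74.6 with DMSO, 54.4 with GSK126 and 60.9 with shSUZ12. Both shCtrl libraries were the highest of the 9 there.

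SNAI2 had no site outside its promoter in all 9 libraries. The most recurrent, 19 kb downstream (chr8:48902225-48902567), had a peak in 8 libraries at percentiles of 18.9 to 64.6. TWIST1 had 1 site in all 9, 59.8 kb upstream (chr7:19177233-19177638), at 29.8 and 38.6 in shCtrl, 76.4 and 61.1 in shEZH2, 59.3 and 46.4 in shE2F1, 75.3 with DMSO, 44.5 with GSK126 and 56.4 with shSUZ12. Both shCtrl libraries were the lowest there, with 14 and 18 tags.

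At VIM the leading distal site was the promoter of TRDMT1, 26.9 kb upstream (chr10:17200864-17201875), at percentiles of 73.4 to 87.8. A region over exons 2 and 3 of VIM, in coding sequence (chr10:17229922-17230674), had a peak in 7 libraries at percentiles of 0.0803 to 4.65, so it was near the bottom of every list that held it. The leading FN1 site was the promoter of ATIC, 124 kb downstream of the FN1 TSS (chr2:215311420-215312780), at percentiles of 88.6 to 98.1. Within FN1, the most recurrent site was in intron 2 (chr2:215433633-215434094), in 5 libraries at percentiles of 1.14 to 16.

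CDH2 had strong sites in spite of its closed promoter. A region 255 kb downstream of the TSS (chr18:27921414-27922736), beyond the 3' end, had percentiles of 88.3 to 98.2 over the 9 libraries. In intron 2, 62.1 kb from the TSS (chr18:28114531-28115623), the percentiles were 94.5 and 93.7 in shCtrl, 90.1 and 90.7 in shEZH2, 74.4 and 78.5 in shE2F1, 87.5 with DMSO, 88.4 with GSK126 and 89.2 with shSUZ12. The shE2F1 libraries were the lowest of the 9 there, with 55 and 96 tags beside 159 and 147 in shCtrl. Of the 22 regions at CDH2, 12 were in the gene body, and 1 of those had a peak in all 9 libraries.

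CDH1 likewise had strong intronic sites beside its weak promoter. Of 11 regions in its body, 3 had a peak in all 9 libraries. The leading one, in intron 2, 23.7 kb from the TSS (chr16:68760555-68761422), had percentiles of 94 and 93.7 in shCtrl, 90.1 and 89.1 in shEZH2, 98.4 and 83.8 in shE2F1, 77.5 with DMSO, 80.4 with GSK126 and 82.5 with shSUZ12. All 9 values lay far above the promoter's. Outside the gene, a site inside TANGO6, 184 kb from the CDH1 TSS (chr16:68921465-68922002), had percentiles of 82.1 to 96.4. EPCAM had no region in its body past the promoter, and its leading site, 24.1 kb upstream of the canonical TSS (chr2:47344946-47345546), had percentiles of 79.7 to 98.9. Other EPCAM transcripts start inside that region, and the stretch around its summit overlaps exons of EPCAM and EPCAM-DT.

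Around the summits of the 152 non-promoter regions, AP-1 letters were found in 59, or 38.8% (31.4 to 46.7), where 28.4% of all non-promoter regions held them. Among those with a peak in all 9 libraries the shares were 48.9% (35 to 63) of 45 and 38.3% of all. E-boxes were found in 17.8% (12.5 to 24.6) and 17.4% of all, and TEAD letters in 17.1% (11.9 to 23.9) and 18.5% of all. Regions of 1 locus are not independent, and no test was made. Beyond the gene's own promoter, TEAD letters were in 5 of 11 regions at TWIST1 and AP-1 letters in 2, while at ZEB2 AP-1 letters were in 7 of 11 and TEAD letters in 1.

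The next question was which EMT regions appeared or disappeared with each knockdown. A region was gained where all libraries of the knockdown but neither control had a peak, and lost in the reverse case. With shEZH2, 4 of 148 regions were gained, 2.7%, where 0.888% of all regions were, and 13 were lost, 8.78%, where 7.17% of all regions were. Both shEZH2 lists were shorter than both shCtrl lists, and with lists of equal length 7 EMT regions were gained and 8 lost, beside 2.67% and 3.87% of all regions. Leaving out a library raises such counts, since fewer libraries have to concur, and gained regions numbered 7 without the first shCtrl library and 14 without the second shEZH2 library. Over all regions the gained count moved from 863 to 1688 and 6535. Lost regions numbered 22 without the second shCtrl library and 27 without the first shEZH2 library, and over all regions this count moved from 6970 to 14152 and 15755.

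**Figure D3:**
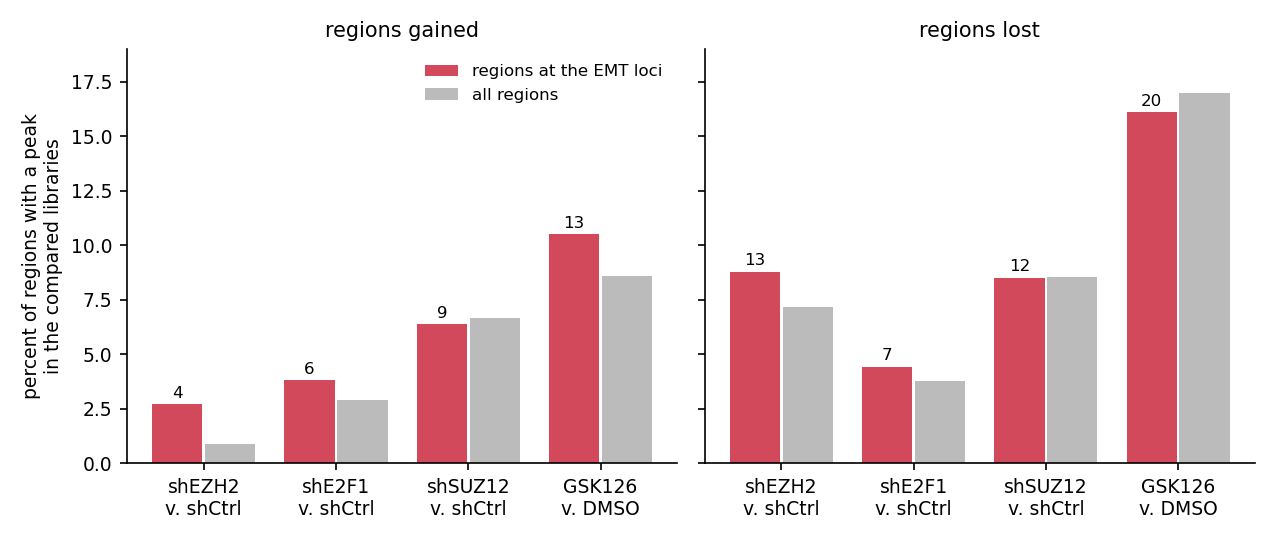
Share of regions gained (left) and lost (right) in each comparison, in percent of the regions with a peak in the compared libraries (vertical axis), for the EMT loci in red with their count above the bar and for all regions in grey. The shares at the EMT loci are 2.7%, 3.8%, 6.38% and 10.5% for gained regions and 8.78%, 4.43%, 8.51% and 16.1% for lost regions.

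Among the regions gained with shEZH2, the strongest lay 97.3 kb downstream of TWIST1 (chr7:19020073-19020555). It had no peak in shCtrl or DMSO, and percentiles of 66.9 and 66.7 in shEZH2, 39.1 and 47.6 in shE2F1, 22.2 with GSK126 and 48.5 with shSUZ12. Its peaks held 41 and 39 tags in shEZH2, and it was found in every knockdown library and with GSK126. The adjacent region (chr7:19020654-19021083) had a peak in the same libraries and also in the first shCtrl library, at 32.5. Accessible chromatin next to this site was therefore not confined to the treated cells. The shEZH2, shE2F1 and shSUZ12 calls at the 97.3 kb site share the shCtrl libraries, so they are not independent. How many of all regions were found in the same set of libraries was not counted. The next gained regions were at FN1. A peak over coding exon 14 (chr2:215409861-215410085), at 46.2 and 29.9, was found in the shEZH2 libraries only. A region 24.8 kb upstream (chr2:215460696-215461067) had percentiles of 54.6 and 25.5 in shEZH2 and was also present in the second shE2F1 library and in shSUZ12. The remaining one, 29 kb upstream of EPCAM, had percentiles of 7.97 and 17.7.

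Lost regions with shEZH2 were led by a site 151 kb downstream of the FN1 TSS (chr2:215284874-215285600), at 71 and 49.3 in shCtrl. It was present in DMSO, GSK126 and shSUZ12 at 40 to 64.3, and in the second shE2F1 library at 42.1. A site 65.6 kb downstream of TWIST1 (chr7:19051872-19052112), at 35.1 and 45.8 in shCtrl, had a peak in all other libraries but the first shE2F1 library, at 35 to 47.4. The third was the ZEB2 promoter described above. The other 10 lay at ZEB2 (1), SNAI1 (3), SNAI2 (2), CDH1 (2) and FN1 (2). No region was lost at ZEB1, VIM, CDH2 or EPCAM in this comparison.

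With shE2F1, 6 of 158 regions were gained, 3.8%, where 2.88% of all regions were, and 7 were lost, 4.43%, where 3.77% were. Gained regions numbered 10 and 12 without the first and the second shCtrl library and 23 without the first shE2F1 library, and over all regions 4669, 5389 and 13288 in place of 3043. Lost regions numbered 15 without the second shCtrl library and 25 without the second shE2F1 library, and over all regions 9852 and 12233 in place of 3984. CDH2 held 3 of the gained regions, TWIST1 2 and ZEB2 1. The leading one lay 64.2 kb upstream of ZEB2 (chr2:144584057-144584584), at 84.8 and 54 in shE2F1, 56.4 in the second shEZH2 library and 29.8 with GSK126. In intron 2 of CDH2, a site 112 kb from the TSS (chr18:28065338-28065759) had 48.2 and 57.5 in shE2F1 and was absent from shCtrl, but it was present with DMSO at 57.5. A site 277 kb downstream of the CDH2 TSS (chr18:27899905-27900241) had 68.6 and 46.4 and was found in the shE2F1 libraries only. Of the others, the TWIST1 sites at 97.3 kb and 3.12 kb were given above, and a CDH2 site in intron 2 had 7.11 and 18.1.

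Regions lost with shE2F1 were led by intron 13 of FN1 (chr2:215410636-215411191), at 44.2 and 52.8 in shCtrl, 20.8 in the first shEZH2 library and 70.6 with shSUZ12. The ZEB2 promoter came next, and then a region over coding exon 13 of CDH1 (chr16:68823405-68824055). The CDH1 region had percentiles of 55.9 and 25.9 in shCtrl, 73.6 and 54.3 in shEZH2, 10.1 with GSK126 and 26.7 with shSUZ12, and no peak with DMSO. In the remaining 4, the lower of the 2 shCtrl percentiles was 17.6 or less, and they lay at SNAI1, FN1 and VIM (2).

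**Figure D4:**
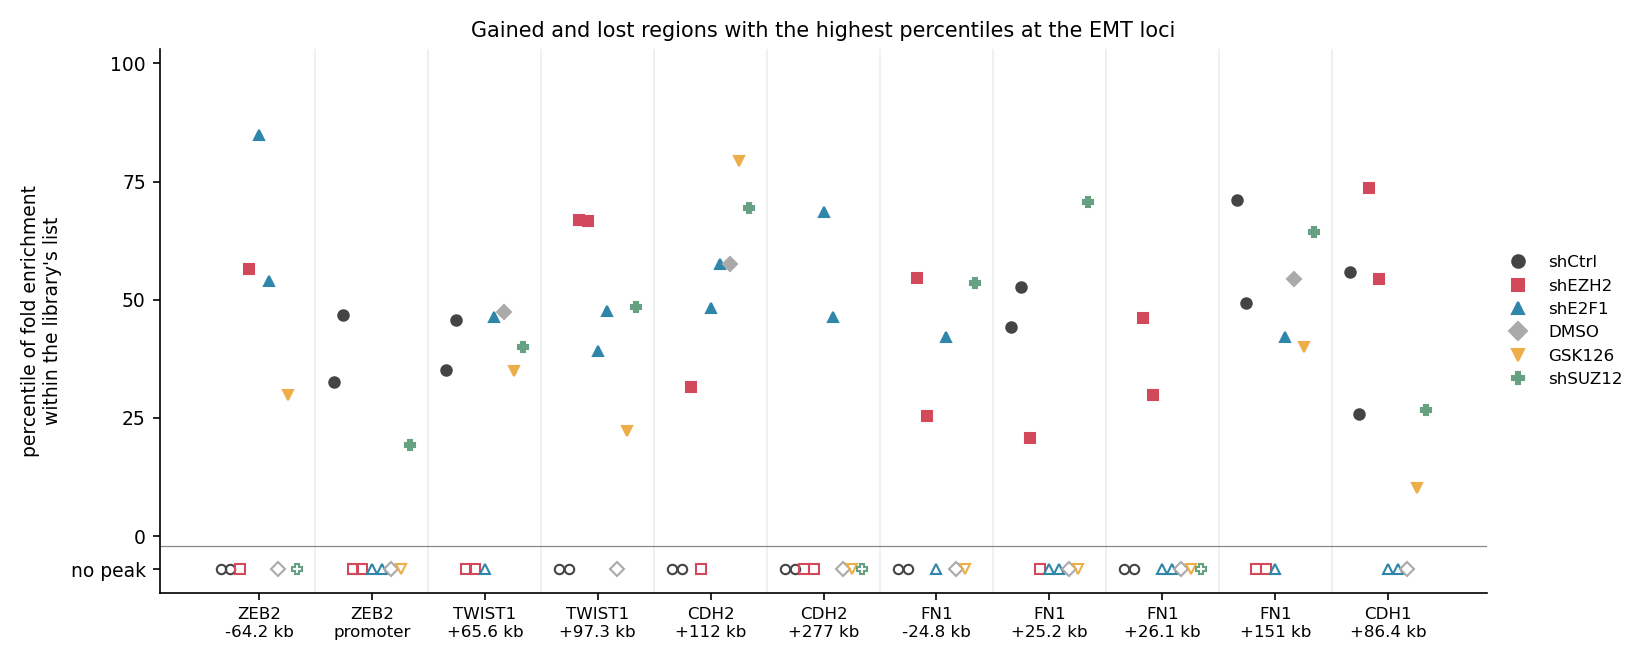
Percentile of fold enrichment (vertical axis, 0 to 100) in each library for the regions gained or lost with shEZH2 or shE2F1 that had the highest percentiles, named by gene and distance from the TSS, with open points under the line for libraries without a peak. The TWIST1 site at 97.3 kb has filled points in 6 libraries, none of them shCtrl or DMSO, and the ZEB2 promoter in 3.

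Over all regions the unreplicated libraries gave larger shares, but a single treated library had to concur there, and no replicate checks them. At the EMT loci the share lost with shSUZ12, 8.51%, was below the 8.78% with shEZH2. With shSUZ12, 9 of 141 regions were gained, where 6.65% of all regions were, and 12 were lost, where 8.54% were. Gained regions numbered 14 without the first shCtrl library and 18 without the second, and over all regions 8961 and 10557 in place of 6347. Lost regions numbered 20 without the second, and over all regions 15817 in place of 8150. With GSK126 against DMSO, 13 of 124 regions were gained, where 8.61% of all regions were, and 20 were lost, where 17% were. At EPCAM no region was gained or lost in either comparison. The TWIST1 site at 97.3 kb was gained in both.

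Regions with peaks in all libraries were compared by limma on the percentiles of 42671 regions, with the 6 libraries of shCtrl, shEZH2 and shE2F1 sharing an estimate of the spread. Of the 63 EMT regions in this fit, none passed an adjusted p of 0.05 (Benjamini-Hochberg) in either comparison, higher or lower, where 0% of all regions did. In a simulation for shEZH2, shifts of 40 percentile points were called in no region. The lack of calls therefore does not show that such differences are absent. At an unadjusted p under 0.05, 7 of the 63 differed with shEZH2, where 10.7% of all regions did, and 4 with shE2F1, where 7.94% did. The shEZH2 count was 3 without the first shCtrl library, and the shE2F1 count was 10 without the second shE2F1 library, while the counts over all regions moved from 4575 to 2788 and from 3389 to 5624. The labels do not say whether replicates were separate cultures, so p measures only the spread between these libraries. The median difference over the 63 regions was -3.68 with shEZH2 and -2.3 with shE2F1, beside -3.92 and -1.48 over all regions. These signs were not fixed: with lists of equal length the shEZH2 medians were -0.84 over the EMT regions and 0.806 over all regions, and without the first shE2F1 library the shE2F1 medians were 0.287 and 0.601. Without overlap between groups, 11 of 73 EMT regions were higher with shEZH2 and 25 lower, where 11.6% and 31.6% of all regions were. With shE2F1, 12 of 79 were higher and 18 lower, where 16.9% and 22.6% were.

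**Figure D5:**
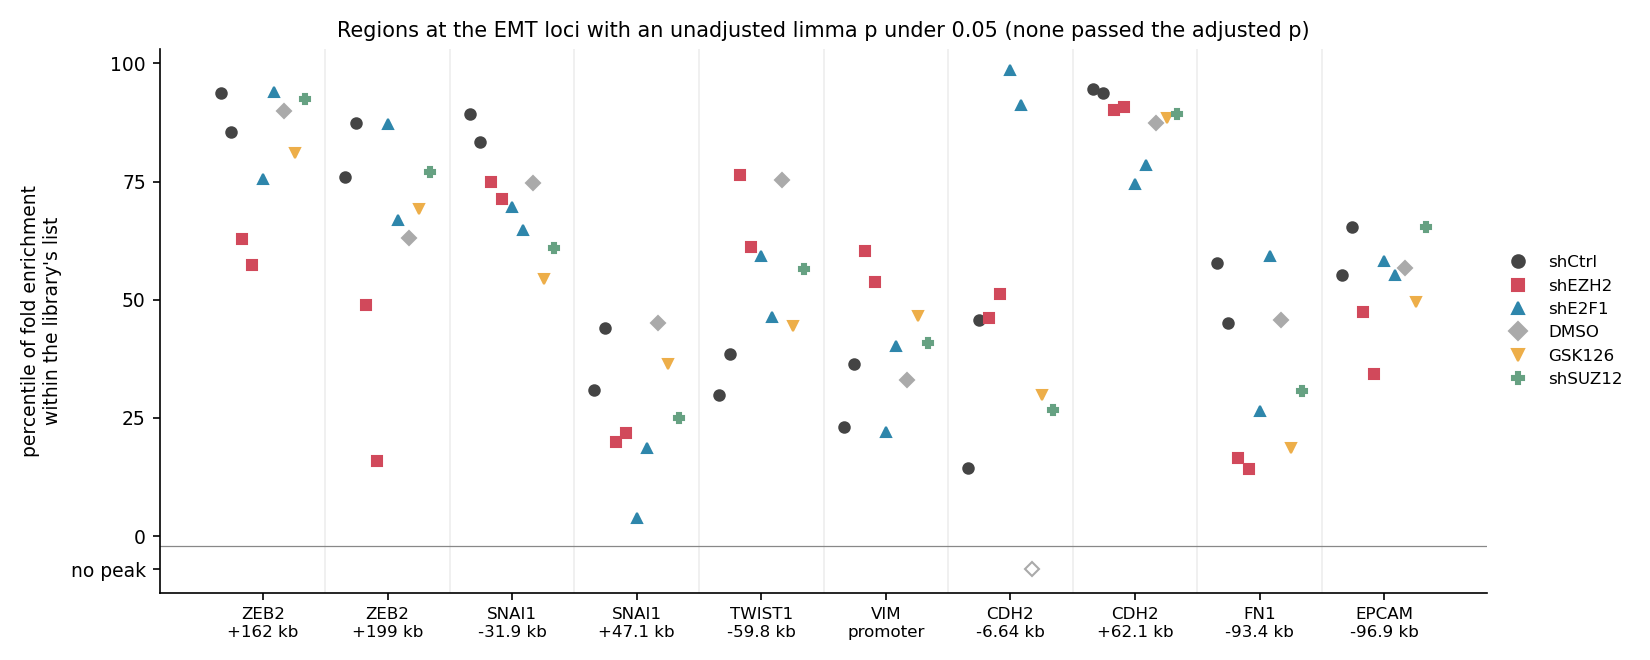
Percentile of fold enrichment (vertical axis, 0 to 100) in each library for the 10 EMT regions with an unadjusted limma p under 0.05 in either comparison, named by gene and distance from the TSS. At the CDH2 site 6.64 kb upstream the shE2F1 libraries, at 98.6 and 91.2, stand far above the other 6 with a peak, and DMSO has none.

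The following sites were picked after their values were seen, and none passed the adjusted limma p. The largest difference at the EMT loci was at CDH2, 6.64 kb upstream of its closed promoter (chr18:28183389-28184143). The percentiles were 14.3 and 45.8 in shCtrl, 46.2 and 51.2 in shEZH2, 98.6 and 91.2 in shE2F1, 29.8 with GSK126 and 26.7 with shSUZ12, and DMSO had no peak. The shE2F1 peaks were 745 and 699 bp wide with 38 tags each at the summit, over backgrounds of 1.72 and 2.18 tags, while the other libraries held 11 to 20 tags. The difference from shCtrl was 64.8 ± 11.1 (SE) points, with a limma p of 0.002 and an adjusted p of 0.48, and 0.00937% of all regions had a rise as large. By −log10 p the shE2F1 peaks stood at percentiles of 85.8 and 71.2 and the shCtrl peaks at 3.76 and 30.1. The intron 2 site of CDH2 differed in the other direction, by -17.6 ± 4.52 (limma adjusted p of 0.534).

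Past the 3' end of ZEB2, 4 regions were present in both shCtrl and both shEZH2 libraries. Of these, 2 were lower with shEZH2 without overlap, 1 overlapped and 1 was higher. The higher one (chr2:144358922-144359501), the neighbour of the site at 162 kb, had percentiles of 6.89 and 10.9 in shCtrl and 38.7 and 19.6 in shEZH2. The site at 162 kb differed by -29.5 ± 7.85 points (limma p of 0.0128, adjusted p of 0.349). The site at 199 kb, inside GTDC1 (chr2:144320360-144320924), had percentiles of 75.9 and 87.5 in shCtrl and 48.9 and 15.8 in shEZH2, with 11 tags in the second shEZH2 library, a difference of -49.4 ± 13.4 (limma p of 0.0139, adjusted p of 0.352). It was 63.1 to 87.2 in the other libraries. FN1 had a lower site 93.4 kb upstream (chr2:215529238-215529711), at 57.7 and 45 in shCtrl and 16.6 and 14.1 in shEZH2. Its difference was -36 ± 11.9 (limma adjusted p of 0.414). The remaining libraries ran there from 18.6 with GSK126 to 59.2 in the second shE2F1 library. The neighbouring region, 92.7 kb upstream (chr2:215528572-215528976), was higher with shEZH2 without overlap, by 23.7 points. It had 60.2 and 48.5 in shCtrl and 79.2 and 76.8 in shEZH2.

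Of the regions in the limma fit with an unadjusted p under 0.05, the TWIST1 site 59.8 kb upstream and the VIM promoter were higher with shEZH2. The differences were 34.6 ± 8.1 points at TWIST1 (limma p of 0.00767, adjusted p of 0.329) and 27.3 ± 8.52 at VIM (limma p of 0.0234, adjusted p of 0.399). At the VIM summit the tags were 124 and 106 in shEZH2 and 129 and 175 in shCtrl, and the local backgrounds were 15.3 and 13.7 beside 25.2 and 28.4, so the ratio was higher without more tags. At the TWIST1 site DMSO, at 75.3, was as high as the shEZH2 libraries. A site inside CDH3, 71.6 kb upstream of CDH1 (chr16:68665525-68665919), rose more, by 47.3 points, but was not in the limma fit. Its percentiles were 29.8 and 42.2 in shCtrl and 82.9 and 83.8 in shEZH2. The first shE2F1 library had no peak there, and the remaining libraries were at 35.2 to 50.4. The SNAI1 site 31.9 kb upstream was lower in both comparisons, by -13.1 ± 5.03 with shEZH2 and by -19.1 ± 5.03 with shE2F1 (limma adjusted p of 0.461 and 0.536), which share their control libraries. A SNAI1 site 47.1 kb downstream (chr20:50029843-50030388), at 30.8 and 44 in shCtrl and 3.92 and 18.6 in shE2F1, differed by -26.1 ± 7.58 (limma adjusted p of 0.554). An EPCAM site 96.9 kb upstream (chr2:47272046-47272859) differed by -19.4 ± 6.82 with shEZH2 (limma adjusted p of 0.434).

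Other genes of the transition were counted for context. Of 13 further EMT transcription factors, 9 promoters had a peak in all 9 libraries and 4 in none, the latter being TWIST2, GSC, FOXC2 and TCF4. Of 23 mesenchymal and matrix genes, 12 were open in all, 2 in some and 9 in none. All 10 TGF-beta signalling genes had a promoter peak, 9 of them in every library and SMAD7 in 8. Of 32 epithelial genes, 19 were open in all, 8 in some and 5 in none. The closed mesenchymal promoters included ACTA2, COL3A1, MMP2 and POSTN, and the closed epithelial ones OVOL1, RAB25 and EHF. The factor ESRP1, a splicing regulator of epithelial cells, had a peak in 8 libraries at percentiles of 0.591 to 32.7.

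In these lists no promoter peak was gained with shEZH2 or shE2F1. TAGLN, the actin-binding protein transgelin, was the 1 promoter lost with shEZH2. It stood at 20.2 and 27.5 in shCtrl, and its peak was present in shE2F1 at 4.9 and 2.64 and in DMSO, GSK126 and shSUZ12 at 17.7 to 57.4. SPDEF, a luminal factor, was the 1 promoter lost with shE2F1, from 3.58 and 2.85 in shCtrl. The share of all promoters gained or lost by this rule was not counted, so these counts describe the lists only. By percentile without overlap, 5 of 12 mesenchymal promoters were lower with shEZH2 and none was higher, and 6 of 19 epithelial promoters were lower and 3 higher. With shE2F1, 3 of 14 mesenchymal promoters were lower and 3 higher, and 6 of 24 epithelial promoters were lower and 2 higher. These shares are to be read against the 29.7% and 10.6% of all promoters with shEZH2 and the 17% and 19.2% with shE2F1.

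The miR-200 family represses ZEB1 and ZEB2, and its hairpins lie in 2 clusters. No region overlapped a hairpin of either cluster. Near the MIR200B, MIR200A and MIR429 cluster, a region 1501 bp from MIR200B (chr1:1164597-1165603) had a peak in all 9 libraries at percentiles of 1.83 to 20.3. Another, 8352 bp away (chr1:1157385-1158752), had percentiles of 49.2 to 84.9. Near MIR200C and MIR141, a region 1001 bp from MIR200C (chr12:6961214-6962698) had percentiles of 36.4 and 39.4 in shCtrl, 38.2 and 22 in shEZH2, 20.9 and 31.4 in shE2F1, and 32.8 to 38.3 in the other 3 libraries. Both shE2F1 values were below those of shCtrl, and the shEZH2 values lay on either side of 36.4.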

How the data were processed

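ATAC-seq was done on MDA-MB-231 cells in 9 libraries (shCtrl, shEZH2 and shE2F1 with 2 each; DMSO, GSK126 and shSUZ12 with 1 each), grouped by the deposited labels. The authors aligned reads with Bowtie2, moved them by 4 and 5 bp for the Tn5 cut, and called peaks per library on GRCh38; the peak caller is not given in the sources used here. The deposited lists hold for each peak a score (for 99.91% or more of the peaks, 10 times −log10 q cut to a whole number), a fold enrichment (a ratio to the local background), the −log10 of p and of q, and the summit.

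Each fold enrichment and −log10 p gave a whole number of tags within 0.002 for 99.93% to 100% of the peaks of each list, with 1 tag added in the ratio. No read counts per region were used. Peaks were merged at an overlap of 1 bp. Regions were annotated with GENCODE release 44. The percentiles of 42671 regions were fitted with limma 3.58.1 (R 4.3.3), by group, with Benjamini-Hochberg adjustment over all regions. Simulated shifts of 60 and 80 percentile points were called higher in 98 and 135 of 200 regions for shEZH2, and shifts of 40 in none. The labels do not say whether libraries with the same replicate number were prepared together. Differences between replicates 1 and 2 correlated across regions at 0.0319, 0.0594 and -0.00555 between groups, and the main fit left out a replicate term. Promoters were named for all 10 genes. Other regions named were, per gene, the site in the body and the site outside it with a peak in the most libraries and then the highest median percentile, and, per knockdown, 3 gained and 3 lost ones ranked by the lower of their 2 percentiles. The members and lists were chosen with earlier results of these data known. Alternatives changed the promoter window and TSS, the peak threshold, the list length, the merging, the ranking, the treatment of missing peaks, the replicate block and, in turn, each of the 6 replicated libraries. Python 3.11.15, pandas 2.3.3, scipy 1.17.1 and pysam 0.24.0 were used.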

Additional observations from a re-analysis of the deposited data

How the results depend on the processing

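In all 9 libraries, 6 EMT promoters had a peak, and this count was 6 to 8 with other windows, other thresholds or the TSS of any transcript and 6 to 7 as each replicate was left out. With lists of equal length, regions gained and lost at the EMT loci numbered 7 and 8 with shEZH2 (4 and 13 as deposited) and 14 and 6 with shSUZ12 (9 and 12), and 11 were lost with GSK126 (20). The shares of EMT regions were 11.9% and 5.08% with shSUZ12, beside 7.35% and 6.57% of all regions, and 10.9% lost with GSK126, beside 11.6%. Over all regions the gained and lost shares then were 2.67% and 3.87% with shEZH2 and closer together than in the lists as deposited (0.888% and 7.17%). As each replicate was left out, gained regions ranged from 4 to 14 with shEZH2, 9 to 23 with shE2F1 and 14 to 18 with shSUZ12, and lost regions from 17 to 27, 8 to 25 and 17 to 20. Fewer libraries then have to concur. The other counts, with −log10 q of at least 5, summits with 250 bp on either side or the compared libraries merged alone, stayed within 1.5 times. The limma fit called 0 EMT regions under every alternative, among them percentiles of −log10 p, equal lists, missing peaks set to 0, log2 fold enrichment and leaving out each replicate (0 to 0), with 7 and 4 EMT regions at an unadjusted p under 0.05 in the main setting. With the replicate block it also called 0, with 6 and 4 at an unadjusted p under 0.05. For shEZH2 the SNAI1 site at 31.9 kb (limma p of 0.0538) and the EPCAM site at 96.9 kb (0.06) then left that count, and the SNAI1 site at 47.1 kb (0.0486) entered it. Simulated shifts of 40 percentile points with shEZH2 were called in no region, so the lack of calls does not show that such differences are absent.

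Alternatives for promoter percentiles were chosen after seeing the data. Beside the values in the report, the shEZH2 differences with equal lists were 39.6 at VIM, 7.06 at SNAI2 and 7.26 at EPCAM, and by −log10 p -0.915 at CDH1 and -5.11 at EPCAM, so the direction at SNAI2, CDH1 and EPCAM, where the groups overlapped, was not fixed. For shE2F1, SNAI2 differed by -12.9 and FN1 by -18.7 by −log10 p, and FN1 by -14 with equal lists. By −log10 p, SNAI1 differed by 5.14, ZEB1 by -0.691, VIM by -5.6 and EPCAM by -6.01, and EPCAM by 3.31 with equal lists, so the direction at ZEB1, VIM and EPCAM, where the groups overlapped, was not fixed either. The lists limit what can be seen: a closed site has no peak at the caller's threshold, and a percentile is relative to its list.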
